A study of Mus musculus with 12 samples.

Results

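The proteasome is the large protease that degrades ubiquitin-tagged proteins, and its subunit genes were followed here in the ventricles of mice that carry a humanised phospholamban gene. Members were chosen by name, as every gene whose symbol is Psm, a letter from a to g and a number, whose TPM (transcript abundance, scaled so that a sample sums to 1000000) averaged 0.5 or more over the 12 samples. Of 48 genes with such a name, 47 passed, out of 33641 genes listed and 12526 that reached the same mean. Psmb11, the catalytic subunit of the thymus proteasome, had a mean of 0.0373 TPM and was left out. The genes just inside the limit were Psma8, a testis alpha subunit, at 1.03 TPM and Psmb9 at 2.60 TPM. The members fell into 15 genes of the 20S core (Psma and Psmb1 to Psmb7), 3 of the immunoproteasome (Psmb8 to Psmb10), 20 of the 19S regulator (Psmc and Psmd), 4 activators (Psme) and 5 genes in none of these (Psmf1 and Psmg1 to Psmg4).

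The samples were left ventricles (LV) and right ventricles (RV) of C57BL/6J-labelled mice aged 12 to 14 weeks, with 3 samples in each of 4 groups: LV WT-PLN, LV R14del-PLN, RV WT-PLN and RV R14del-PLN. Phospholamban (PLN) inhibits the calcium pump of the sarcoplasmic reticulum, and R14del-PLN lacks the arginine at residue 14. According to the methods, all mice carried a human PLN coding sequence knocked in at the mouse start codon, the R14del-PLN mice were heterozygous males and the allele passed through a Sox2-Cre cross from chimeric males of 129/Sv-CP and C57Bl/6J origin. Polyadenylated RNA of whole ventricle was sequenced, so that fewer cells of a type and less RNA per cell cannot be told apart, and no sample was treated.

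The core is a barrel of alpha rings around beta rings, and 3 of its beta subunits cut protein: Psmb5, Psmb6 and Psmb7. In immune cells, and in other cells exposed to interferon, Psmb8, Psmb9 and Psmb10 take their respective places. The 19S regulator recognises ubiquitin and feeds unfolded protein into the barrel with its Psmc ATPases, the Psme proteins open the barrel in other ways, and the Psmg proteins are chaperones that assemble it. In heart muscle the proteasome turns over sarcomere and signalling proteins.

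Each sample summed to 1000000 TPM, so the sequencing depth and its counting error are unknown, and a level depends on what else was abundant. The mitochondrially encoded genes took 37.3% to 54.5% of the TPM and were lowest in LV R14del-PLN replicate 3, which also had the highest sum of proteasome genes (2692 TPM against a median of 2068 TPM over the 12 samples). Cardiomyocyte marker genes summed to between 28419 and 43109 TPM in every sample, and leukocyte markers to between 121 and 284 TPM. LV WT-PLN replicate 3 had the highest sums of smooth muscle markers (259 TPM, where the highest of the rest was 84.6 TPM) and of atrial cardiomyocyte markers (1296 TPM, while the rest ranged from 45.6 to 871 TPM). Both WT-PLN replicate 1 samples had low Y-linked genes (a sum of 0.284 TPM in LV and 0.250 TPM in RV, against 43.5 to 63.7 TPM in the other 10 samples), although the methods name males. The results were computed with and without those 2 samples, and no proteasome gene was called either way.

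The sequences before the catalytic genes are shown because the comparisons of standard with inducible subunits rest on these pairs. They are the 250 bases upstream of the RefSeq start, 5′ to 3′ on the gene's strand, in build GRCm38.p6: chr14:54617996-54618245 (minus strand) for Psmb5, chr17:34197945-34198194 (plus) for Psmb8, chr11:70525107-70525356 (plus) for Psmb6, chr17:34187331-34187580 (minus) for Psmb9 and chr8:105938393-105938642 (minus) for Psmb10. For Psmb6 the RefSeq gene begins at position 70525324, inside the window, so its capitals lie within the annotated gene. Psmb8 and Psmb9 both lie on chromosome 17, at 34198195 to 34201454 and at 34182030 to 34187330. Capitals mark the letters TGACNNNGC (the core of the antioxidant response element) in Psmb5 and Psmb6, TTCNNNGAA (the interferon-gamma activated site) in Psmb8 and CCAAT, read on the other strand, in Psmb9. None of these letters is in the window of Psmb10.
Psmb5: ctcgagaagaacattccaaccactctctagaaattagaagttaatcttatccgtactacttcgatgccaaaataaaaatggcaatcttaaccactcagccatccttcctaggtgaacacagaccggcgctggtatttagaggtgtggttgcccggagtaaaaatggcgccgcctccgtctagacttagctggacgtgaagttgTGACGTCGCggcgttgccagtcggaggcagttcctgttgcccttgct
Psmb8: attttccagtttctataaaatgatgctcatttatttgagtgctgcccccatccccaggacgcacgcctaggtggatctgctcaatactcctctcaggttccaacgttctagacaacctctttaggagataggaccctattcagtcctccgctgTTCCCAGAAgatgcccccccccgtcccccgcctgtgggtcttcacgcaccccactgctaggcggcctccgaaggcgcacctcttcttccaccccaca
Psmb6: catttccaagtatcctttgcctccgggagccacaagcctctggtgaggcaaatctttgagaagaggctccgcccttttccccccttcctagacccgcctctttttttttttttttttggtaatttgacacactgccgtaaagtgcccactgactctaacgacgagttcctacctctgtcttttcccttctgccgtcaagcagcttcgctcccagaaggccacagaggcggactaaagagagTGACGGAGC
Psmb9: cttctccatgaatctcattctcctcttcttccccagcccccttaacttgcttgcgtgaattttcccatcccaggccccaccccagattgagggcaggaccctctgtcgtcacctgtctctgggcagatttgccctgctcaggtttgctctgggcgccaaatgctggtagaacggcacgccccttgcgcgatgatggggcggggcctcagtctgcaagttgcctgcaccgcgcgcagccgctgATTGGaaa
Psmb10: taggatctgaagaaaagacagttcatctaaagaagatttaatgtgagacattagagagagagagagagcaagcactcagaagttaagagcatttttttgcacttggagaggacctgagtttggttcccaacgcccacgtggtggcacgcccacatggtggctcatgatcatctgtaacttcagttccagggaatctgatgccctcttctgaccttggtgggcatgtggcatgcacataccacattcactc

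Of the 47 genes, 39 had RefSeq start windows, 42 in all, each reaching from 250 bases before to 50 bases after the start; Psmb7 had no entry. A search of both strands for 10 motifs, chosen with these data in view, found CCGGAAG (the ETS site) in 35.7% of the windows, against 8.86% of all 32851 windows, and GGGCGG (the GC box) in 57.1% against 35.7%. The 14 genes with CCGGAAG included the ATPases Psmc1, Psmc2 and Psmc6 and the activators Psme3 and Psme4. The core of the antioxidant response element was in 14.3% against 12.4%, and its longer form TGANTCAGC in 2.38% (1 of 42) against 1.19%. TTCNNNGAA was in 7.14% against 8.3%, and CCAAT in 31.0% against 37.4%. The core of the interferon-stimulated response element was in 11.9% (5 of 42) against 3.44%. The genes with that core were Psmb3, Psmd4, Psmd9, Psme1 and Psmg4, and none of the inducible subunits was among them. The E-box CACGTG was in 9.52% against 7.15%, the NRF1 site in 4.76% (2 of 42) against 0.971%, and the cAMP response element TGACGTCA in 0.0% against 1.79%. TGACNNNGC can overlap TGACGTCA. A match describes the letters only.

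Among the core genes Psmb6, the caspase-like catalytic subunit, was highest at a mean of 112 TPM, ranging from 89.0 to 141 TPM over the samples. Without Psma8, the 14 other core genes lay within 3.65-fold of each other, down to 30.5 TPM for the alpha subunit Psma5. The inducible subunits were lower, at 23.5 TPM for Psmb10, 6.53 TPM for Psmb8 and 2.60 TPM for Psmb9, and their ranges over the 12 samples did not overlap. In the regulator, the ATPase Psmc3 was highest at 107 TPM. The 3 chaperones of regulator assembly (Psmd5, Psmd9 and Psmd10) had means of 4.87 to 6.19 TPM, below the 24.9 to 107 TPM of the other 17 genes. Psme1, which forms an activator ring with Psme2, had a mean of 98.5 TPM, the chromatin-linked activator Psme4 61.6 TPM, Psme2 43.9 TPM and the nuclear activator Psme3 28.4 TPM. Within the core, 1 of 14 neighbouring pairs in the order of means had ranges that did not overlap, where the ranges include the scale shared within a sample. Compared within samples, 4 of 14 pairs kept the same order in all 12, so most neighbours changed order in at least 1 sample.

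**Figure D1:**
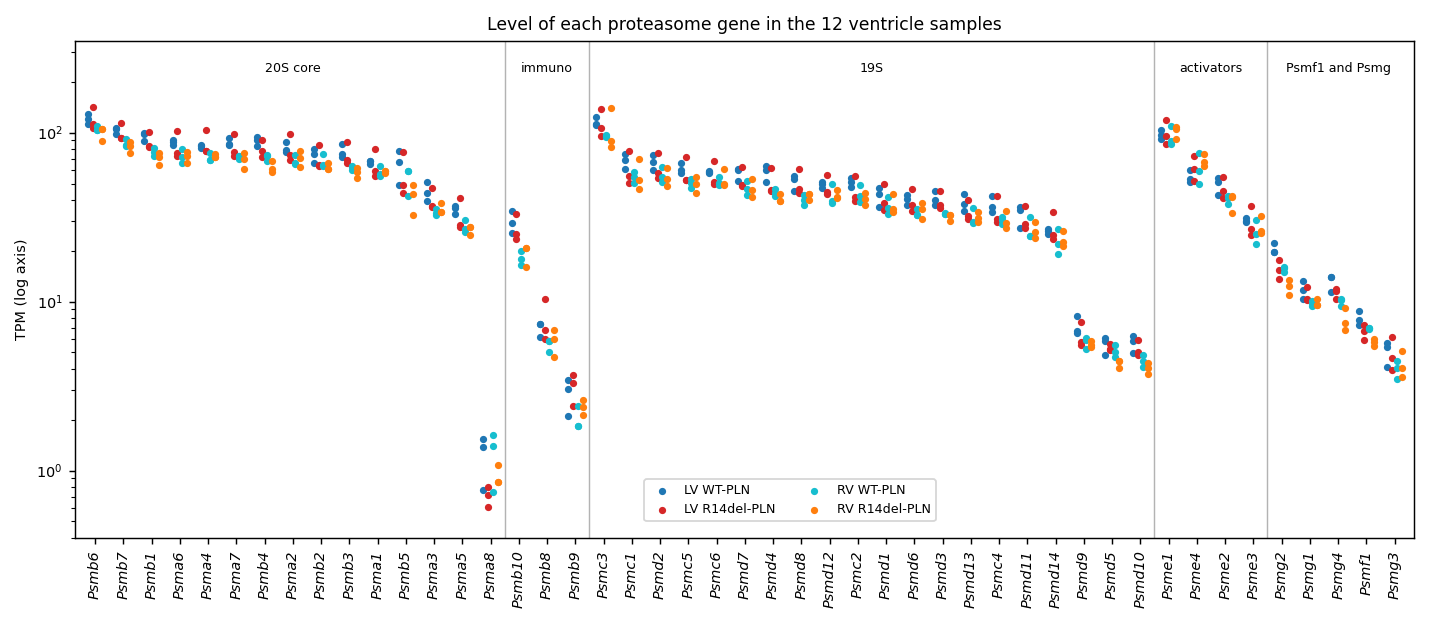
TPM of each proteasome gene (log axis) in the 12 ventricle samples, 1 point per sample, coloured by group, with genes sorted by mean within each class. Core and 19S genes mostly sit between 24.9 and 112 TPM, while the inducible subunits, the 3 assembly chaperones of the regulator and Psma8 (mean 1.03 TPM) sit lower.

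The first question was whether R14del-PLN changed proteasome expression in each ventricle. No proteasome gene was called in LV or in RV by limma, which here required 1.5-fold or more and a Benjamini-Hochberg adjusted p no larger than 0.05, where 0.519% and 0.271% of all genes tested were called. At an unadjusted p under 0.05, 2 of 47 genes (4.26%) were lower in LV, against 7.85% of all genes, and 0 higher, against 1.76%. In RV 2 of 47 (4.26%) were lower, against 3.4% of all genes, and 0 higher, against 2.82%. The count in RV was 0 without RV R14del-PLN replicate 2 and 0 without RV WT-PLN replicate 1, and that in LV was 11 (23.4%, against 17.7% of all genes) without LV R14del-PLN replicate 3. The 95% confidence interval lay inside the 1.5-fold limit in both directions for 44 of 47 genes in each ventricle. The median log2 fold change of the members was −0.08 in LV (all genes −0.09) and −0.01 in RV (all genes −0.00). With quantile normalization the medians turned to 0.03 and 0.02 (all genes 0.01 and 0.01), so no direction is given for the family. Of 5 red cell markers, 4 were lower at an unadjusted p under 0.05 in LV of R14del-PLN and 3 in RV. Their sums were 1093 to 2142 TPM against 2087 to 2316 TPM in LV and 956 to 1368 TPM against 1461 to 1736 TPM in RV. Of 8 leukocyte markers tested, 2 were lower and 0 higher at that p in each ventricle. The leukocyte sums were 158 to 178 TPM against 178 to 284 TPM in LV and 121 to 214 TPM against 145 to 198 TPM in RV. Of 5 endothelial markers, 1 was higher and 0 lower in each ventricle. In LV, 1 of 5 fibroblast and 1 of 4 atrial cardiomyocyte markers were lower. The part of these cell types in the genotype comparisons was not tested.

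By class, the median change was −0.08 (LV) and −0.07 (RV) on the log2 scale for the core genes, −0.08 and −0.01 for the 19S genes, −0.01 and 0.11 for the activators and 0.09 and 0.07 for the immunoproteasome genes. It was −0.20 and −0.24 for the 5 genes Psmf1 and Psmg1 to Psmg4 (all genes −0.09 and −0.00), the lowest of the 5 classes in both ventricles. With quantile normalization the core and 19S medians in LV turned to 0.03 and 0.03, the activators to 0.10, and the 19S median in RV to 0.03. The immunoproteasome median in LV moved to 0.19, and that of Psmf1 and the Psmg genes to −0.09 in LV and −0.23 in RV. Groups that did not overlap occurred for 1 gene in LV, lower in R14del-PLN (2.13% of members, against 8.47% of all genes), and for 0 genes higher (against 2.48%). In RV they occurred for 6 genes, all lower (12.8%, against 5.79% of all genes), namely Psmb4, Psmd3, Psmd5, Psmf1, Psmg2 and Psmg4, and for 0 genes higher (against 5.19%). Without the mitochondrially encoded genes, 5 members were apart and lower in LV (10.6%, against 15.3%) and 0 higher (against 4.94%), and in RV 4 were lower (8.51%, against 5.1%) and 2 higher (4.26%, against 9.19%).

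The smallest p in both ventricles belonged to Psmg2, a chaperone that assembles the alpha ring. It measured 19.6, 19.7 and 22.2 TPM in LV WT-PLN and 15.3, 13.6 and 17.7 TPM in LV R14del-PLN. In RV it measured 16.03, 14.999 and 15.78 TPM in WT-PLN and 13.36, 11.01 and 12.34 TPM in R14del-PLN. The groups did not overlap in either ventricle, yet the log2 fold changes of −0.39 (SE 0.12, adjusted p = 0.272) in LV and −0.33 (SE 0.12, adjusted p = 0.599) in RV were not called by limma. Over the alternatives the adjusted p in LV ran from 0.0982 to 0.783.

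Psmg4, another chaperone of this step, measured 11.4, 14.0 and 13.9 TPM in LV WT-PLN and 10.3, 11.9 and 11.5 TPM in LV R14del-PLN. In RV it measured 10.2, 9.37 and 10.4 TPM in WT-PLN and 9.11, 6.79 and 7.51 TPM in R14del-PLN. The LV groups overlapped and the RV groups did not, with limma log2 fold changes of −0.20 (SE 0.13, adjusted p = 0.699) and −0.33 (SE 0.13, adjusted p = 0.675). Psmf1, a proteasome inhibitor and assembly factor, measured 7.29, 7.80 and 8.78 TPM in LV WT-PLN, 6.73, 5.94 and 7.31 TPM in LV R14del-PLN, 6.85, 6.95 and 6.94 TPM in RV WT-PLN and 5.44, 5.98 and 5.73 TPM in RV R14del-PLN. Its RV groups did not overlap, and its limma log2 fold changes were −0.23 (adjusted p = 0.574) and −0.24 (adjusted p = 0.83). The other assembly chaperones overlapped between genotypes in both ventricles: Psmg1 ranged from 9.37 to 13.2 TPM and Psmg3 from 3.46 to 6.14 TPM over the 12 samples.

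Psma8 had an unadjusted p under 0.05 in LV, but at 0.610 to 0.799 TPM in R14del-PLN and 0.766 to 1.54 TPM in WT-PLN it was near the limit of the filter and the groups overlapped (log2 fold change −0.37, adjusted p = 0.517 by limma). Psmd4, a ubiquitin receptor of the regulator, overlapped in LV at 45.4 to 61.5 TPM in R14del-PLN and 50.9 to 63.2 TPM in WT-PLN (log2 fold change −0.19, adjusted p = 0.729 by limma). In RV, the core subunit Psmb4 measured 58.5 to 67.5 TPM in R14del-PLN and 67.6 to 73.5 TPM in WT-PLN, a narrow gap (log2 fold change −0.19, adjusted p = 0.977 by limma). The chaperone Psmd5 measured 4.07 to 4.47 TPM and 4.68 to 5.56 TPM (log2 fold change −0.19, adjusted p = 0.985 by limma). All 4 activators overlapped between genotypes in both ventricles, with log2 fold changes from −0.08 for Psme2 to 0.16 for Psme4 in LV and from −0.05 to 0.17 for the same genes in RV.

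**Figure D2:**
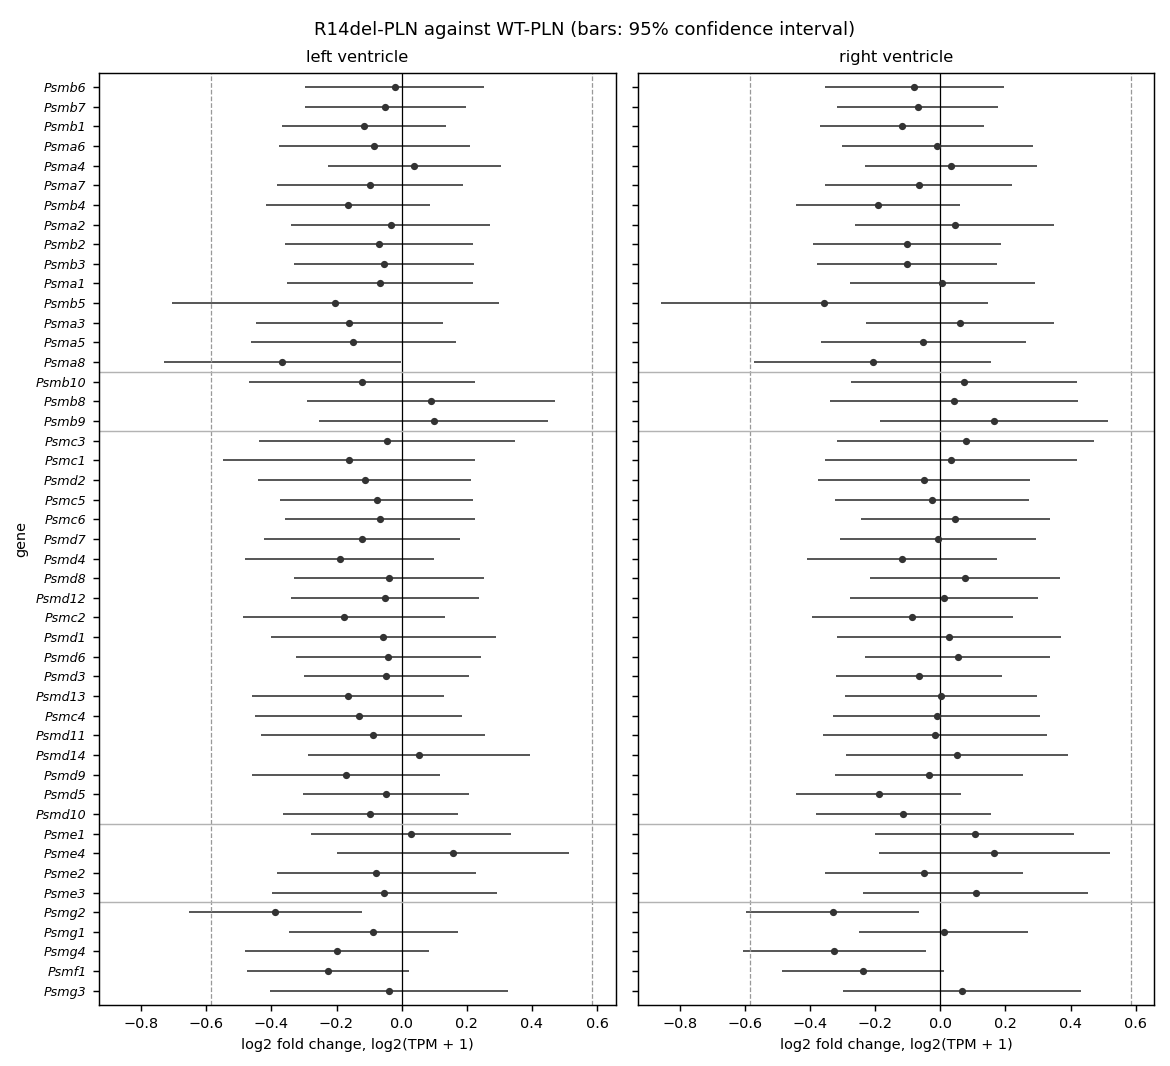
Log2 fold change of R14del-PLN against WT-PLN on log2(TPM + 1) for each proteasome gene in LV (left panel) and RV (right panel), with the 95% confidence interval from limma (n = 3 per group); dashed lines mark 1.5-fold. The points lie within 0.39 of 0 in both panels, with Psmg2 lowest in LV at −0.39.

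No gene was called for a difference between the 2 genotype effects, as 0.0% of all genes were. At an unadjusted p under 0.05 there were 0 of 47 members, against 1.01% of all genes. The smallest p values belonged to the alpha subunit Psma3 (0.22, interval −0.19 to 0.63), the lid subunit Psmd13 (0.17, interval −0.25 to 0.58) and Psmb10 (0.19, interval −0.30 to 0.69), given as the difference in log2 fold change, RV minus LV. The level of Psma3 is uncertain because of a pseudogene copy described with the ventricle comparison.

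RV was then compared with LV within each genotype. No proteasome gene was called by limma in WT-PLN or in R14del-PLN, where 0.0% and 0.0% of all genes were. At an unadjusted p under 0.05, 13 of 47 genes (27.7%) were lower in RV of WT-PLN hearts, against 13.8% of all genes, and 0 higher, against 0.655%. In R14del-PLN hearts 10 of 47 (21.3%) were lower, against 6.07% of all genes, and 0 higher, against 0.503%. These counts depended on the scaling. In WT-PLN, 9 were lower (19.1%, against 8.01%) and 1 higher (2.13%, against 2.17%) without the mitochondrially encoded genes. With quantile normalization 3 were lower (6.38%, against 5.29%) and 1 higher (2.13%, against 5.73%). In R14del-PLN, 4 were lower (8.51%, against 2.06%) and 2 higher (4.26%, against 5.97%) without the mitochondrially encoded genes. With quantile normalization 7 were lower (14.9%, against 4.32%) and 2 higher (4.26%, against 4.55%).

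Single samples moved the counts as well. In WT-PLN the count of lower genes was 2 (4.26%, against 5.21%) without LV WT-PLN replicate 3, 4 (8.51%, against 8.98%) without RV WT-PLN replicate 2, 6 (12.8%, against 9.14%) without LV WT-PLN replicate 2 and 26 (55.3%, against 19.3%) without LV R14del-PLN replicate 3, a sample in neither group of this comparison. In R14del-PLN it was 3 (6.38%, against 2.36%) without LV R14del-PLN replicate 3, 5 (10.6%, against 3.28%) without RV R14del-PLN replicate 3 and 17 (36.2%, against 7.98%) without LV R14del-PLN replicate 1. The median log2 fold changes of the members were −0.27 (all genes −0.17) and −0.20 (all genes −0.08). Removing the mitochondrially encoded genes reduced these medians to −0.14 (all genes −0.06) and −0.05 (all genes 0.06), while quantile normalization gave −0.08 and −0.09 (all genes 0.01 and 0.00). Mitochondrially encoded genes averaged 46.0% ± 1.72 of the TPM in LV WT-PLN and 50.9% ± 2.05 in RV WT-PLN (SD, n = 3), and their part in the ventricle difference was not tested beyond this removal. Endothelial markers summed to 91.5 to 114 TPM in LV WT-PLN and 69.4 to 85.1 TPM in RV WT-PLN, with 5 of 5 genes lower in RV and 3 of them at an unadjusted p under 0.05, and to 90.3 to 126 TPM against 80.1 to 109 TPM in R14del-PLN. Red cell markers summed to 2087 to 2316 TPM in LV WT-PLN and 1461 to 1736 TPM in RV WT-PLN, and the part of either cell type was not tested.

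Groups that did not overlap, with RV lower, occurred for 31 members (66.0%) in WT-PLN, against 25.2% of all genes, and for 14 members (29.8%) in R14del-PLN, against 8.72%. With RV higher they occurred for 0 members (against 0.974%) and for Psma8 alone (2.13%, against 1.26%). Without the mitochondrially encoded genes the counts were 16 lower (34.0%, against 12.0%) and 0 higher (against 3.12%) in WT-PLN, and 10 lower (21.3%, against 3.61%) and 3 higher (6.38%, against 11.5%) in R14del-PLN. The 3 higher genes were Psma8, Psme1 and Psme4. LV and RV samples of the same number may come from the same mouse, the 47 genes of a sample are not independent, and both comparisons rest on 3 samples a group.

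Psmb10, the inducible trypsin-like subunit, had the smallest p of the ventricle comparisons. It measured 25.3, 29.1 and 34.1 TPM in LV WT-PLN and 16.39, 17.94 and 20.03 TPM in RV WT-PLN. In R14del-PLN it measured 25.1, 23.3 and 33.1 TPM in LV and 20.6, 16.1 and 20.8 TPM in RV. The LV and RV values did not overlap in either genotype, with limma log2 fold changes of −0.67 (SE 0.16, adjusted p = 0.204) in WT-PLN and −0.47 (SE 0.16, adjusted p = 0.711) in R14del-PLN. Over the alternatives the adjusted p in WT-PLN ran from 0.0718, with genotype and replicate number as a block, to 0.727. Leukocyte marker genes summed to 178 to 284 TPM in LV WT-PLN and 145 to 198 TPM in RV WT-PLN. In R14del-PLN they summed to 158 to 178 TPM in LV and 121 to 214 TPM in RV, where replicate 1 was highest. Across the 12 samples, after removal of group means, the correlation with the leukocyte sum was 0.61 for Psmb10, 0.31 for Psmb8 and −0.13 for Psmb9, as a description of samples that share a scale. The part of leukocytes in the difference was not tested.

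The other catalytic subunits had smaller fold changes, none of them called. Psmb7, the standard trypsin-like subunit, measured 98.7, 107 and 105 TPM in LV WT-PLN and 85.1, 83.4 and 91.9 TPM in RV WT-PLN (log2 fold change −0.25, unadjusted p = 0.048 by limma). In R14del-PLN it measured 92.9, 93.6 and 114 TPM in LV and 88.0, 83.9 and 76.2 TPM in RV (log2 fold change −0.27). These groups did not overlap. Psmb6 measured 113, 121 and 129 TPM against 103, 104 and 109 TPM in WT-PLN (log2 fold change −0.19) and 106, 112 and 141 TPM against 105, 106 and 89.0 TPM in R14del-PLN (log2 fold change −0.25), again without overlap. Psmb8 measured 7.41, 6.21 and 7.36 TPM in LV WT-PLN, 5.88, 5.88 and 5.04 TPM in RV WT-PLN, 6.75, 5.98 and 10.3 TPM in LV R14del-PLN and 6.75, 6.04 and 4.72 TPM in RV R14del-PLN. Psmb9 measured 3.45, 2.11 and 3.05 TPM in LV WT-PLN, 2.40, 1.84 and 1.82 TPM in RV WT-PLN, 3.68, 2.40 and 3.32 TPM in LV R14del-PLN and 2.61, 2.13 and 2.39 TPM in RV R14del-PLN. Only for Psmb8 in WT-PLN did these ventricles not overlap.

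Psma3 and Psmg2 followed Psmb10 in WT-PLN by p. Psma3 measured 39.2, 43.8 and 50.7 TPM in LV and 33.6, 35.2 and 32.4 TPM in RV (log2 fold change −0.38, adjusted p = 0.285 by limma), and its value is uncertain because a processed pseudogene, Gm13835 (chr6:31141865-31142726), is identical to it over 685 bases and was listed at 23.4 to 45.9 TPM. Psmg2 had a log2 fold change of −0.37 (adjusted p = 0.268 by limma). In R14del-PLN, Psmg4 (−0.48, adjusted p = 0.711 by limma) and Psmb4 (−0.35, adjusted p = 0.711 by limma) stood with Psmb10.

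Among the activators, Psme4 and Psme1 had the fold changes nearest to or above 0. Psme4 measured 50.9, 53.2 and 60.1 TPM in LV WT-PLN and 59.4, 49.4 and 76.1 TPM in RV WT-PLN, with an interval of the log2 fold change from −0.20 to 0.51. In R14del-PLN it measured 51.4, 60.7 and 72.6 TPM in LV and 67.1, 74.5 and 63.3 TPM in RV. Psme1 measured 92.2, 96.8 and 103 TPM against 89.3, 86.0 and 109 TPM in WT-PLN and 96.0, 85.3 and 119.5 TPM against 108, 106 and 91.1 TPM in R14del-PLN. Psme2 was at 42.9 to 54.1 TPM in LV and 37.9 to 42.3 TPM in RV of WT-PLN, and Psme3 at 29.5 to 31.4 TPM and 22.0 to 30.3 TPM. Relative to the median deviation of the proteasome genes in the same sample, Psme4 lay at −0.34 to −0.29 in LV WT-PLN, −0.17 to 0.33 in RV WT-PLN, −0.17 to 0.04 in LV R14del-PLN and 0.26 to 0.34 in RV R14del-PLN on the log2 scale. Psme4 had the longest transcript of the members (6491 bases). The members' deviations correlated with log2 transcript length at −0.361 to −0.16 in LV WT-PLN and −0.061 to 0.262 in RV WT-PLN. In R14del-PLN this was −0.257 to −0.104 in LV and −0.018 to 0.42 in RV, and the part of transcript length was not tested.

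**Figure D3:**
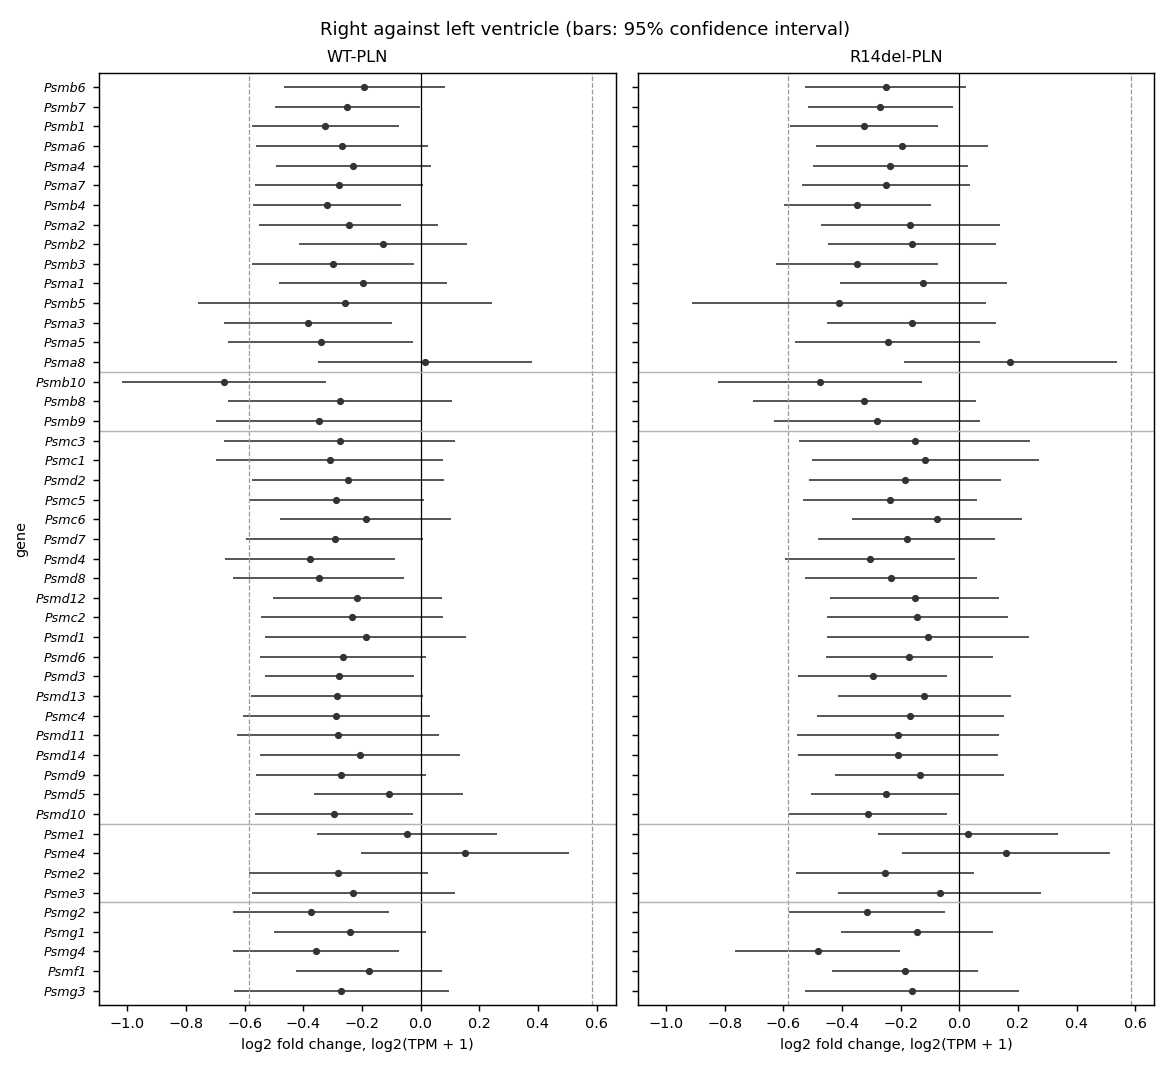
Log2 fold change of RV against LV on log2(TPM + 1) for each proteasome gene in WT-PLN (left panel) and R14del-PLN (right panel), with the 95% confidence interval from limma (n = 3 per group); dashed lines mark 1.5-fold. Most points lie left of 0, with Psmb10 at −0.67 in WT-PLN and Psmg4 at −0.48 in R14del-PLN, and Psme4 lies right of 0 in both.

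The ratio of an inducible subunit to the standard subunit it replaces does not depend on how a sample was scaled. Psmb10 to Psmb7 was 0.285 ± 0.0364 in LV WT-PLN and 0.209 ± 0.0139 in RV WT-PLN (SD, n = 3), and these groups did not overlap (exact two-sided permutation p = 0.1, the smallest that 3 against 3 allows; 0.6 after adjustment over 12 tests). In R14del-PLN it was 0.270 ± 0.0206 in LV and 0.233 ± 0.0405 in RV, with overlap. The share of G and C bases (GC content) was 56.5% in the longest transcript of Psmb10 and 48.7% in that of Psmb7. The members' deviations correlated with GC content at 0.063 to 0.386 in LV WT-PLN and −0.343 to 0.045 in RV WT-PLN. In R14del-PLN this was 0.154 to 0.278 in LV and −0.299 to −0.004 in RV, and the part of GC content was not tested. Psmb9 to Psmb6 was 0.0239 ± 0.00660 in LV WT-PLN, 0.0266 ± 0.00718 in LV R14del-PLN, 0.0192 ± 0.00352 in RV WT-PLN and 0.0239 ± 0.00346 in RV R14del-PLN. Psmb8 to Psmb5 was 0.111 ± 0.0161 in LV WT-PLN, 0.136 ± 0.0160 in LV R14del-PLN, 0.108 ± 0.0279 in RV WT-PLN and 0.146 ± 0.0453 in RV R14del-PLN, where the level of Psmb5 is uncertain because of a near-identical copy described with that gene. All other ratio comparisons overlapped, with exact permutation p from 0.2 to 1.0.

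**Figure D4:**
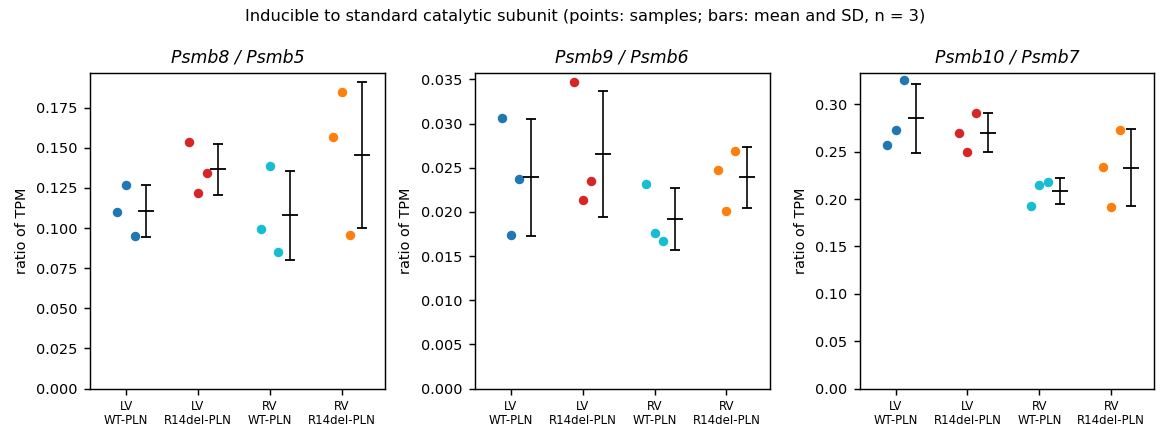
Ratio of TPM of the inducible to the standard catalytic subunit in each sample (points), with mean and SD beside them (n = 3 per group). Psmb10 to Psmb7 is lower in every RV WT-PLN sample than in any LV WT-PLN sample, at 0.209 against 0.285 on average.

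Psmb5, the chymotrypsin-like subunit, varied more than any other standard core gene except Psma8, from 32.8 to 77.5 TPM. It measured 67.3, 48.9 and 77.5 TPM in LV WT-PLN, 59.2, 42.3 and 59.2 TPM in RV WT-PLN, 44.0, 49.1 and 76.8 TPM in LV R14del-PLN and 43.2, 32.8 and 49.2 TPM in RV R14del-PLN. All 4 comparisons of these groups overlapped. A processed pseudogene, Gm3375 (chr7:3181089-3181959), is 98.9% identical to Psmb5 over 796 bases and was listed at 4.77 to 13.5 TPM, so reads can be split between them.

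Gm3375 took 8.83% to 10.3% of the summed TPM of the pair in 6 samples and 19.4% to 23.5% in the other 6, with none between. The LV and RV samples of the same genotype and number fell on the same side in 6 of 6 pairs. In WT-PLN the shares were 9.43% and 9.54% (LV and RV) for number 1, 21.3% and 19.7% for number 2 and 9.24% and 9.7% for number 3. In R14del-PLN they were 23.5% and 22.6% for number 1, 20.8% and 19.4% for number 2 and 10.3% and 8.83% for number 3. The level of Psmb5 relative to the other proteasome genes was 0.15 to 0.32 in the 6 samples with the lower share and −0.61 to −0.05 in the 6 with the higher share, on the log2 scale. The higher share was found in 1 of 3 pairs in WT-PLN and 2 of 3 in R14del-PLN, so it was not balanced between the genotypes in the ratio of Psmb8 to Psmb5. Which strain's alleles of Psmb5 and Gm3375 a sample carried was not analysed here. These values were seen in the data and have no test. With Gm3375 added to Psmb5 the sum still ran from 40.6 to 85.6 TPM, and the ratio of Psmb8 to this sum was 0.0953 in LV WT-PLN and 0.111 in LV R14del-PLN (exact permutation p = 0.3), and 0.0928 and 0.119 in RV (exact permutation p = 0.3).

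After removal of group means, the proteasome genes moved together as deposited. Their median correlation was 0.702 over 1081 gene pairs and 12 samples, whose genes share a scale, and no value for other genes is given beside it. The members' median correlation was 0.204 without the mitochondrially encoded genes and −0.002 after subtraction of each sample's median. On the last scale, with group means kept, the ATPase Psmc5 (SD 0.0361), Psmb6 (SD 0.0447) and the lid subunit Psmd6 (SD 0.0526) were the steadiest, and Psma8, Psmb5, Psme4, Psmb9 and Psmb10 the most variable. RV R14del-PLN replicate 2 stood apart from the other 11 samples: 14 of its genes deviated by more than 0.2, against 1 to 6 elsewhere. In it Psmc3 lay at 0.45, the ATPase Psmc1 at 0.30, Psmb5 at −0.61, Psmg4 at −0.48, Psmg2 at −0.42 and Psmb10 at −0.42. The deviations of its members correlated with log2 transcript length at r = 0.42 (47 genes that share a library; 0.332 over 11829 genes). In the other 11 samples the members' correlation ran from −0.361 (LV WT-PLN replicate 1) to 0.334 (RV R14del-PLN replicate 3). The part of transcript length was not tested.

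**Figure D5:**
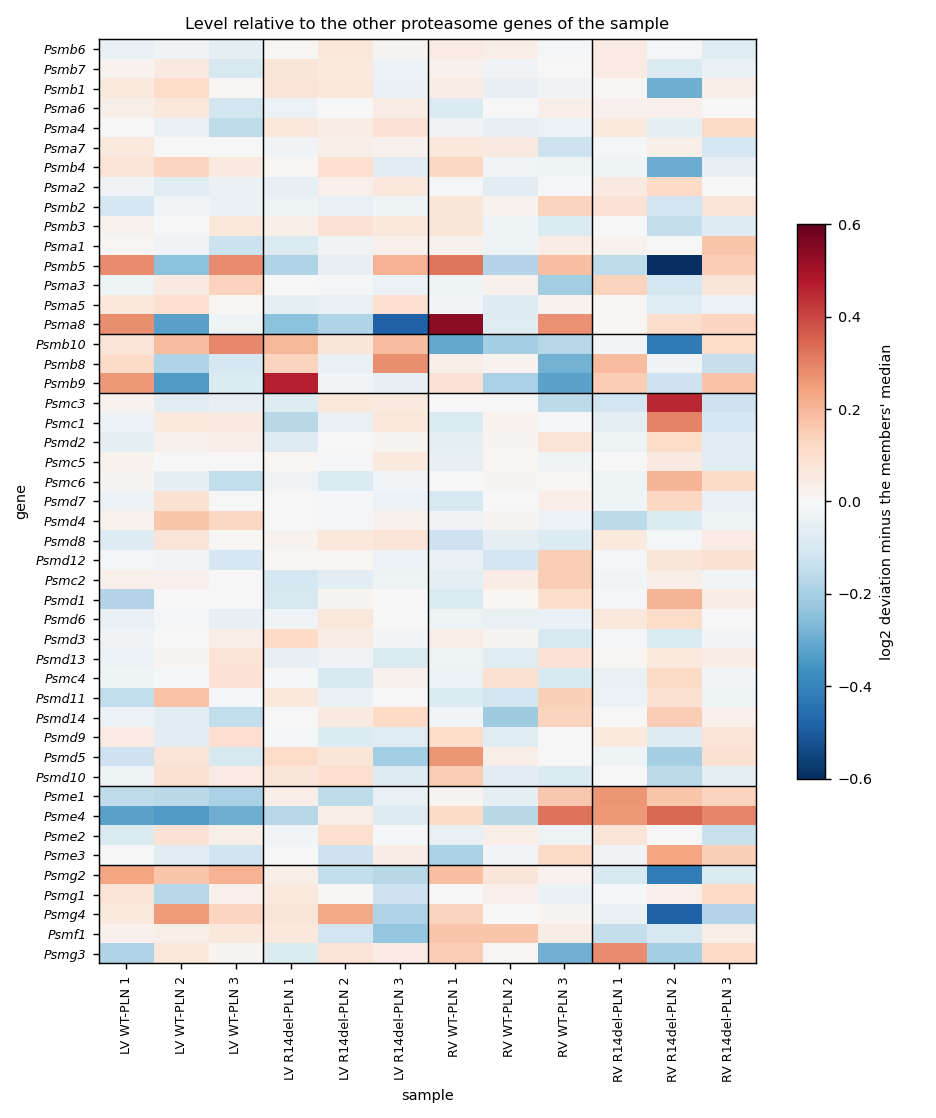
Log2 deviation of each proteasome gene from its mean over the 12 samples, minus the median deviation of the proteasome genes in that sample (colour scale −0.6 to 0.6), with genes in rows and samples in columns. RV R14del-PLN replicate 2 shows the strongest colours, with Psmc3 at 0.45 and Psmb5 at −0.61, and Psme4 is low in the 3 LV WT-PLN samples and high in the 3 RV R14del-PLN samples.

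Genes that act with the proteasome (ubiquitin precursors and carriers, the segregase Vcp, regulators of proteasome transcription) numbered 31 measured of 32 listed, and 0 were called in any comparison by limma. At an unadjusted p under 0.05, 4 (12.9%, against 7.85% of all genes) were lower and 0 higher in LV of R14del-PLN, and 1 (3.23%, against 3.4%) was lower and 0 higher in RV. Zfand5, a protein that binds the proteasome and ubiquitin, measured 37.2, 43.7 and 43.8 TPM in LV WT-PLN and 35.0, 29.7 and 36.0 TPM in LV R14del-PLN (log2 fold change −0.30, adjusted p = 0.426 by limma). In RV it measured 37.6, 36.4 and 42.2 TPM in WT-PLN and 30.6, 33.9 and 30.6 TPM in R14del-PLN (log2 fold change −0.28, adjusted p = 0.752 by limma). Both pairs of groups were apart. The ubiquitin shuttles Ubqln1 (−0.32, adjusted p = 0.379 by limma) and Ubqln2 (−0.30, adjusted p = 0.417 by limma) were also apart in LV, as was Uchl5, and Ubqln2 was apart in RV. In all, groups were apart and lower for 4 of 31 genes in LV (12.9%, against 8.47% of all genes). In RV this held for 2 of 31 (6.45%, against 5.79%), and 0 were apart and higher in LV (against 2.48%) or RV (against 5.19%). In RV against LV of WT-PLN, 7 (22.6%, against 13.8%) were lower and 0 higher at that p, and of R14del-PLN 2 (6.45%, against 6.07%) were lower and 0 higher.

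Of 9 genes regulated together with the inducible subunits in immune responses, 0 were called. At an unadjusted p under 0.05, 1 (11.1%, against 7.85% of all genes) was lower in LV of R14del-PLN: Nlrc5, the activator of class I genes, measured 0.87, 0.80 and 0.93 TPM in WT-PLN and 0.44, 0.30 and 0.72 TPM in R14del-PLN (log2 fold change −0.34, adjusted p = 0.443 by limma). Irf1 (−0.34, adjusted p = 0.574 by limma) and B2m (−0.33, adjusted p = 0.586 by limma) overlapped. In RV against LV of WT-PLN, 5 of 9 (55.6%, against 13.8% of all genes) were lower at that p, and in R14del-PLN 0 were (against 6.07%).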

How the data were processed

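Ventricular RNA was sequenced in 12 samples. According to the study's methods, the authors made stranded libraries from polyadenylated RNA and mapped reads to GRCm38 with CLC Genomics Workbench. The deposited unit is TPM per gene, which sums to 1000000 in each sample. The program and annotation behind the TPM, and whether strand was used, are not given in the sources used here. From these values, log2(TPM + 1) of 12526 genes, those averaging 0.5 TPM or more, was fitted with limma 3.58.1 in R 4.3.3 (4 group means, intensity trend, Benjamini-Hochberg adjustment over all genes tested). Genes were called at 1.5-fold or more with an adjusted p no larger than 0.05, or at that p alone for the difference of genotype effects. Fold changes on log2(TPM + 1) understate changes of low genes. TPM carry no depth, so no counting interval is given. The fit was tested on simulated data.

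Ratios of catalytic subunits were compared with exact two-sided permutation tests of 3 against 3. Members, lists and named genes (the catalytic subunits, activators, Psmf1 and Psmg genes, class extremes and the smallest p values) were chosen with earlier results of these data known. Relative levels, correlations, counts without mitochondrially encoded genes, transcript length, GC content, motifs and copies (BLAST 2.17.0, at least 95% identity over 80% of the shorter transcript, GENCODE) were added after the data had been seen. Copies were found for 9 members. Those of Psma3, Psmb5 and Psme2 (Psme2b, 0.957 to 2.63 TPM) had a mean above 1 TPM. Start windows and positions came from RefSeq GRCm38.p6. The paper gives the RNA sequencing groups as 3 mice, and the labels do not say which LV and RV samples share a mouse.

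Replicate numbers were checked for pairing by correlating deviations from group means over genes. Between LV and RV this was 0.657, 0.321 and 0.457 in WT-PLN, where the best match of each number was the same number. In R14del-PLN it was 0.389, 0.23 and 0.054, where the best match of LV replicate 3 was RV replicate 2. The main limma fit and the permutation tests used no pairing. The fits with genotype and replicate number as a block paired the samples by number in both genotypes. The file of RV R14del-PLN replicate 3 names another run than the rest.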

Additional observations from a re-analysis of the deposited data

How the results depend on the processing

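Under the alternatives of the limma fit, 29 for RV against LV and 28 for the genotype comparisons and their difference, 0 proteasome genes were called in any comparison run, and 779 of 788 recomputed values kept their direction and their side of the threshold. The median log2 fold change of the members between genotypes did turn with quantile normalization, from −0.08 to 0.03 in LV and from −0.01 to 0.02 in RV. With replicate blocks 0 members were called as well, whether the number was fixed, genotype with number random or, for RV against LV, fixed; the last called 12 genes in all in WT-PLN, where the deposited samples without a block gave 0. Without LV R14del-PLN replicate 3, 11 members (23.4%, against 17.7% of all genes) had an unadjusted p under 0.05 in LV between genotypes (14 without both R14del-PLN replicate 3 samples, 29.8% against 17.3%), all lower, with a median of −0.21 (all genes −0.19). In RV against LV of WT-PLN the number of members lower at that p was 13 and ran from 2 (4.26%, against 5.21%) without LV WT-PLN replicate 3 to 29 (61.7%, where 2378 of 12526 genes were) without both R14del-PLN replicate 3 samples. In R14del-PLN it was 10 and ran from 2 (4.26%, against 3.28%) with only the 6 samples compared to 17 (36.2%, against 7.98%) without LV R14del-PLN replicate 1. The cause was not tested. The ratio of Psmb8 to Psmb5 turned in RV against LV of WT-PLN, to 0.00111 without both WT-PLN replicate 1 samples. Leaving out 1 sample at a time moved it between −0.0184 and 0.00849, the same ratio in R14del-PLN between −0.0103 and 0.0340, Psmb9 to Psmb6 between −0.00146 and 0.00599 for genotype in LV and between −0.00518 and 0.00149 for RV against LV in R14del-PLN, and Psmb10 to Psmb7 for genotype in LV between −0.0295 and 0.00531.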
